A study of Mus musculus with 5 samples.

Results

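The RNA of 10 receptor tyrosine kinases other than the ErbB family was followed in cell lines grown from BrafV600E-driven mouse thyroid tumors. These were Axl, Met, Fgfr1, Igf1r, Ddr1, Ddr2, Pdgfra, Pdgfrb, Ret and Kit, taken by gene symbol. All 10 were listed among the 17923 genes with a value in at least 1 library, and 9 passed the filter on low counts of the test, Kit being the exception. The BVE-Ctnnb1wt line (wt below) carries BrafV600E with Ctnnb1, the gene of β-catenin, intact, and the BVE-Ctnnb1null lines (null below) carry BrafV600E with a deletion of Ctnnb1. The BVE line gave 2 wt libraries at passage 20, of which replicate 2 had been grown with thyroid-stimulating hormone (TSH) and replicate 1 had not. The 3 null libraries came from BVECTN_4 at passage 8 without TSH (replicate 1), BVECTN_4A at passage 11 (replicate 2) and BVECTN_5 at passage 7 (replicate 3), with no TSH entry in the labels of the latter pair. All lines were immortalized by long culture of cells from donor tumors. These passages differ from the protocol, which states about 25 for the wt line and 20 for the null lines. The wt libraries are a single line, so genotype, line and passage cannot be told apart. The p-values measure only the spread between these 5 libraries. Since the wt pair also differs in TSH, each wt SD includes any effect of TSH. Library totals were between 29360002 and 30713079 estimated counts.

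Receptor tyrosine kinases span the cell membrane, bind a growth factor or a matrix protein outside the cell and phosphorylate tyrosines inside it. The phosphorylated sites recruit adaptors that switch on the Ras, PI3K and STAT routes. BrafV600E keeps the kinase cascade below Ras active without such a signal, and receptors such as MET, RET and the FGF receptors are well known in thyroid cancer, where rearranged RET is a driver. All values below are RNA levels, either FPKM (fragments scaled to transcript length and library size) or CPM (counts scaled to library size with TMM factors, but not to length).

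The deleted gene was examined before the receptors. Ctnnb1 was at 59.3 and 73.8 FPKM in wt replicates 1 and 2 and at 125, 196 and 118 FPKM in null replicates 1, 2 and 3. The RNA was thus higher in FPKM in every library labelled null, while on TMM-scaled CPM the groups overlapped (edgeR log2 fold change 0.55, SE 0.44, adjusted p = 0.517). Which exons the deletion removes is not given in the sources used here, and a sum over the whole transcript does not check a deletion of part of it. Directions between groups below therefore rest on the labels. The libraries are labelled thyroid epithelial cells, but thyroglobulin (Tg) was at most 0.86 FPKM in all 5. It was at 0.80 and 0.86 FPKM in the wt and lower, at 0.04, 0.51 and 0.34 FPKM, in the null libraries. The 13 thyroid follicular markers summed to 15.3 and 20.6 FPKM in the wt and 35.2, 68.5 and 4.86 FPKM in the null libraries. Members went different ways. Hhex was highest in null replicate 2, at 20.2 FPKM, and Slc5a5 in null replicate 1, at 6.48 FPKM. Nkx2-1, a thyroid transcription factor, was at 9.21 and 15.02 FPKM in the wt and 9.26, 34.8 and 0.26 FPKM in the null libraries. Pax8, its partner in the follicular cell, was at 0.40 and 0.17 FPKM in the wt and 18.2, 12.8 and 2.56 FPKM in the null libraries.

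**Figure D1:**
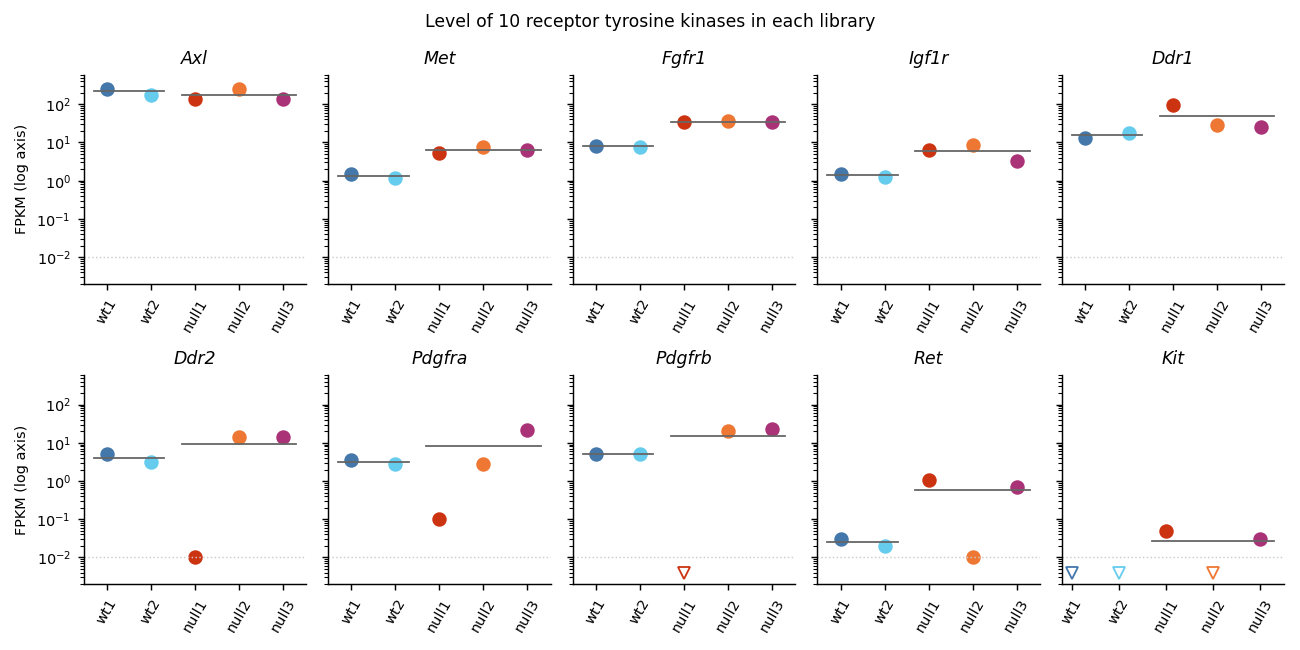
FPKM of each receptor in the 5 libraries on a log axis (wt1 and wt2, wt replicates; null1 to null3, null replicates); horizontal lines mark group means and open triangles a gene listed at 0. Met, Fgfr1, Igf1r and Ddr1 lie above both wt libraries in all 3 null libraries, while Ddr2, Pdgfra and Pdgfrb are at or near 0 in null replicate 1.

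Axl, a receptor of the TAM family that binds Gas6, was the most abundant of the 10 in every library. It was at 255 and 177 FPKM in the wt and at 141, 250 and 137 FPKM in null replicates 1, 2 and 3. Group means were 216 ± 55.3 (SD, n = 2) and 176 ± 63.9 (SD, n = 3), and the groups overlapped. On TMM-scaled CPM they did not: Axl was at 1534 and 1223 CPM in the wt and at 658, 1022 and 567 CPM in the null libraries. The edgeR log2 fold change was -0.88 (SE 0.42), with an adjusted p of 0.309 and an exact permutation p of 0.5 for the FPKM (two-sided, smallest possible p 0.1). Axl was the only receptor of the 9 tested with a log2 fold change below 0, and all 14 alternative settings kept that sign. The RefSeq transcripts NM_009465 and NM_001190974 differ by a whole exon of 27 coding bases on chromosome 7 (exon 10, chr7:25773099-25773125, GRCm38, minus strand, GENCODE M21), which NM_001190974 lacks. It is shown because these transcripts differed in share between libraries, with the exon in capitals and 30 coding bases on either side in lower case.
Axl exon 10: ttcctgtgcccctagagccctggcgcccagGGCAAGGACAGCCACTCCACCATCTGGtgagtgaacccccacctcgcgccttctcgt
NM_001190974, the transcript without these bases, took 20.6% and 20.7% of the Axl FPKM in the wt and 7.53%, 16.7% and 18.7% in the null libraries. All null libraries were thus below both wt libraries in this share, null replicate 1 farthest. NM_009465, with the exon, took 38.2% and 41.9% in the wt and 59.5%, 31.8% and 36.3% in the null libraries. In null replicates 2 and 3 both transcripts were thus below the wt shares. Only in null replicate 1 was the transcript with the exon higher and the one without it lower. Reads that fall outside the exon are divided between the transcripts by estimation, so the shares are less certain than the gene's sum. NM_001190975 took between 33.0% and 51.5% of the Axl FPKM. GENCODE matches it to the same model as NM_009465, although their listed lengths differ (4793 and 5084 bases). It was therefore not placed with or without the exon, so the full share of Axl RNA that lacks the exon is not known here.

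Met, the receptor of hepatocyte growth factor, was higher in every null library in FPKM and in CPM. It was at 1.49 and 1.15 FPKM in the wt and at 5.39, 7.80 and 6.44 FPKM in the null libraries. The lowest null library was well above the higher wt library, and the ratio of means was 4.96 (1.32 ± 0.240 against 6.54 ± 1.21 FPKM, SD, n = 2 and n = 3). edgeR gave a log2 fold change of 1.73 (SE 0.47) with an adjusted p of 0.191, and the exact permutation p for the FPKM was 0.1, the smallest that 2 against 3 libraries allow. DESeq2 called Met higher in the null libraries, with a log2 fold change of 1.64 (SE 0.45, adjusted p = 0.00574). With transcript length as an offset, a setting chosen after seeing the data, the edgeR value was 0.61 (SE 0.43, adjusted p = 0.546).

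Fgfr1, a receptor of fibroblast growth factors that signals through the docking protein Frs2, was the most even of the 10 within groups, its null libraries lying within 1.11-fold and its wt libraries within 1.03-fold. It was at 8.01 and 7.78 FPKM in the wt and at 33.6, 37.1 and 33.5 FPKM in the null libraries. The gap between groups exceeded the spread within them, with means of 7.89 ± 0.163 and 34.7 ± 2.05 FPKM (SD, n = 2 and n = 3) and a ratio of 4.4. edgeR gave a log2 fold change of 1.55 (SE 0.41, adjusted p = 0.191), and DESeq2 one of 1.46 (SE 0.41, adjusted p = 0.00666), past its threshold. With the length offset the edgeR value was 0.80 (SE 0.40, adjusted p = 0.433). Fgfr1 was listed as 3 transcripts that differ in coding sequence, shown here with the stretches in capitals between coding bases in lower case, 15 on either side of the longer and 30 of the shorter. The longer is a whole exon of 267 bases (exon 3, chr8:25555508-25555774, GRCm38, plus strand) that encodes the outermost immunoglobulin-like domain and is absent from NM_001079909. The shorter is 6 bases within exon 4 (chr8:25557815-25557820), absent from NM_001079908.
Fgfr1 exon 3: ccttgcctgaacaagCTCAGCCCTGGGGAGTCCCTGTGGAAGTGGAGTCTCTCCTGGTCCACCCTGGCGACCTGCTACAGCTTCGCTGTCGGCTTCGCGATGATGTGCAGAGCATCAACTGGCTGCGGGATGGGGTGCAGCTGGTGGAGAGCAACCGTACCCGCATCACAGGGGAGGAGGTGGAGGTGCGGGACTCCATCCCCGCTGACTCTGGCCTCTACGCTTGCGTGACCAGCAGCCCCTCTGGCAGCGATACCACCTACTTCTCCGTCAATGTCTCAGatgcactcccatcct
Fgfr1 exon 4, 6 bases: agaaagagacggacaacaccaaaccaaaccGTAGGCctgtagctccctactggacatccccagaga
NM_001079909, without exon 3, took 36.8% and 34.2% of the Fgfr1 FPKM in the wt and 31.1%, 44.3% and 29.8% in the null libraries. NM_001079908, without the 6 bases, took 49.4% and 35.6% in the wt and 50.1%, 52.7% and 50.0% in the null libraries. In NM_001079909 the null libraries lay on both sides of the wt libraries, and in NM_001079908 they lay above both wt libraries, though the wt pair itself differed more than the null libraries did.

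Igf1r, the receptor of insulin-like growth factors, was also higher in FPKM in all null libraries but varied more among them. It was at 1.52 and 1.23 FPKM in the wt and at 6.46, 8.54 and 3.33 FPKM in the null libraries. Null replicate 2 was 2.56-fold above null replicate 3, and the ratio of group means was 4.44 (1.38 ± 0.205 against 6.11 ± 2.62 FPKM, SD, n = 2 and n = 3). edgeR gave a log2 fold change of 1.58 (SE 0.55, adjusted p = 0.227), and the exact permutation p was 0.2. With the length offset the edgeR value for Igf1r turned to -0.30 (SE 0.45, adjusted p = 0.802).

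Ddr1 and Ddr2 are receptors of collagens, Ddr1 mainly of epithelial and Ddr2 of mesenchymal cells. Ddr1 was at 12.96 and 17.87 FPKM in the wt and at 96.1, 28.1 and 25.4 FPKM in the null libraries. Null replicate 1 stood 3.42-fold above null replicate 2 and 3.78-fold above null replicate 3, which lay nearer to the wt libraries. On TMM-scaled CPM the groups overlapped, at 57.3 and 90.3 CPM in the wt against 330, 85.1 and 77.8 CPM in the null libraries. The edgeR log2 fold change of 1.15 (SE 0.76, adjusted p = 0.436) dropped to 0.11 without null replicate 1. NM_172962, a Ddr1 transcript that lacks an exon of 111 coding bases, was listed at 0 in both wt libraries and at 3.23, 0.22 and 0.87 FPKM in the null libraries. That was at most 3.43% of the Ddr1 FPKM in any library. The exon (exon 12 of NM_001198831, chr17:35686481-35686591, GRCm38, minus strand) is given in capitals because it separates this transcript from the main ones.
Ddr1 exon 12: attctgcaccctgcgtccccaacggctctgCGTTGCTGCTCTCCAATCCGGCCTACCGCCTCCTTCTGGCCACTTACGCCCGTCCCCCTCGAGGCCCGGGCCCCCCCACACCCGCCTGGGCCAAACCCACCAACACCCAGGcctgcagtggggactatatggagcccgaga
Ddr2 was at 5.14 and 3.11 FPKM in the wt and at 0.01, 14.2 and 14.3 FPKM in null replicates 1, 2 and 3. In counts, null replicate 1 held 2 estimated reads of Ddr2, against 3529 and 3547 in the other null libraries and 1331 and 812 in the wt. Null replicate 1 thus lay below the wt libraries and the other null libraries above them, by at least 1199-fold between null replicates 2 and 1 with a floor of 3 counts per library. The edgeR log2 fold change of 0.58 (SE 1.78, adjusted p = 0.879) averages these opposite libraries. It was between 0.10 (without null replicate 2) and 1.14 (without null replicate 1) when a library was left out. Its sign turned in 4 of the 13 alternatives in which Ddr2 could be tested, among them the replicate number as a block (-3.42).

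Pdgfra and Pdgfrb, the receptors of platelet-derived growth factors, mark fibroblasts and pericytes in tissue. Pdgfrb was at 5.22 and 5.06 FPKM in the wt and at 0, 20.8 and 23.4 FPKM in the null libraries. Not a single read was assigned to it in null replicate 1, which allows up to 0.1 CPM, counting error only, against 3354 and 3779 reads in null replicates 2 and 3. The latter pair was at least 1140-fold and 1282-fold above null replicate 1, and 4.05-fold and 4.55-fold above the wt mean. Pdgfra was at 3.54 and 2.71 FPKM in the wt and at 0.10, 2.86 and 21.5 FPKM in the null libraries. It was spread over a 215-fold range among the null libraries, with null replicate 2 inside the wt range and null replicate 3 at 6.89-fold the wt mean. Ddr2, Pdgfra and Pdgfrb were lowest of the 5 libraries in null replicate 1 and at least 4-fold below the wt mean there on log2(FPKM + 0.1), an order that 18.1% and a drop that 4.55% of all genes showed. Neither Pdgfra nor Pdgfrb passed the test between the groups in edgeR (log2 fold change 0.76, SE 1.59, adjusted p = 0.818 for Pdgfra and 0.88, SE 1.95, adjusted p = 0.83 for Pdgfrb). The Pdgfra value turned to -1.71 without null replicate 3, and that of Pdgfrb was between 0.36 and 1.43 when a library was left out. The sign turned in 5 of 14 alternatives for Pdgfra and in 4 of the 13 that could test Pdgfrb. Among these was the replicate number as a block (-3.05 for Pdgfra and -3.54 for Pdgfrb). Upstream windows of Pdgfra and Ddr2 are shown because both genes were near 0 in the same library, and that of Igf1r because it held the only match among the windows that overlap no annotated exon (those of Axl, Igf1r, Pdgfra and Ddr2). Each holds the 250 bases before the gene's start from the RefSeq promoter table of GRCm38.p6, in which 7 of the 10 receptors had an entry.
Pdgfra, chr5:75152001-75152250, plus strand: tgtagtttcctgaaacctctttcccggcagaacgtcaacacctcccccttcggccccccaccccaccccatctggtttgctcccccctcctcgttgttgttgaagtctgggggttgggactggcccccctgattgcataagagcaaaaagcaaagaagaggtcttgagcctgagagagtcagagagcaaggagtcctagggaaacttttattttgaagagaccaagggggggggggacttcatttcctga
Ddr2, chr1:170088945-170089194, minus strand: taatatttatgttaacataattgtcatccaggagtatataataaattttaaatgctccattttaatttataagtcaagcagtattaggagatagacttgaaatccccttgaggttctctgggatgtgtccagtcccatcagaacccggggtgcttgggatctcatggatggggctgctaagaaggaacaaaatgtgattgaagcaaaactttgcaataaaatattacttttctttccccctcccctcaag
Igf1r, chr7:67952007-67952256, plus strand: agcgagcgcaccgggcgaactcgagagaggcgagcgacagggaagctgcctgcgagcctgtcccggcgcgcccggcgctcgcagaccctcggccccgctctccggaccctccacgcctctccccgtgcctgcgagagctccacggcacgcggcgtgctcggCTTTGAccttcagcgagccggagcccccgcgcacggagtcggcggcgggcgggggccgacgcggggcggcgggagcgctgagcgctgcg
Capitals mark a match to CTTTGA or CTTTGT, the core letters bound by the TCF/LEF partners of β-catenin, or to TGANTCA, the AP-1 core, on either strand. The Igf1r window held 1 CTTTGA, and the windows of Pdgfra, Ddr2, Axl and Kit held none of these letters. Met had 1 TGANTCA and no CTTTGA or CTTTGT, and Ddr1 had matches to all 3 over the windows of its several starts. Of 32851 promoters in the table, 27.6% held CTTTGA or CTTTGT and 6.75% held TGANTCA, so such matches are common. The GC content was 77.6% for Igf1r, 54.4% for Pdgfra and 37.6% for Ddr2, beside a median of 52.4% over all promoters.

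Ret, the receptor of the GDNF family, was low throughout. It was at 0.03 and 0.02 FPKM in the wt (6 and 3 reads) and at 1.07, 0.01 and 0.71 FPKM in the null libraries (238, 2 and 157 reads). Null replicates 1 and 3 were thus at least 77.8-fold and 52.2-fold above null replicate 2, which lay with the wt libraries. The fitted log2 fold change of 4.38 (SE 1.87, edgeR adjusted p = 0.275) rests on fewer than 10 reads in either wt library, and was 3.29 with the length offset, 2.34 with the replicate block, and 1.91 and 0.58 with limma on log2(FPKM + 0.1) and log2(FPKM + 1). Kit, the receptor of stem cell factor, had no read in the wt libraries and in null replicate 2, and 8 and 5 reads in null replicates 1 and 3. At this depth no level could be given for Kit beyond 0.05 FPKM in its highest library. Calca, the marker of the C cells that express Ret in the thyroid, was between 0.29 and 0.73 FPKM in the 5 libraries. The 7 C cell markers summed to 3.14 and 2.73 FPKM in the wt and 5.16, 1.77 and 1.73 FPKM in the null libraries. Of these Syp was the most abundant in the wt, at 2.07 and 1.57 FPKM against 0.12, 0.11 and 0.08 FPKM in the null libraries. Calcb, the most abundant in the null libraries, was at 0.28 and 0.58 FPKM in the wt and 3.78, 1.33 and 1.22 FPKM in the null libraries, and Chga reached 0.74 FPKM in null replicate 1. The part of such cells in the Ret values was not tested. The 7 mast cell markers, the cell type best known for Kit, summed to at most 0.10 FPKM.

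Over all genes, edgeR called 0 of 13240 higher (0%) and 0 lower (0%) at an adjusted p under 0.05, and 0 of the 9 receptors. At an unadjusted p under 0.05 it counted 1646 genes higher (12.4%) and 804 lower (6.07%) in the null libraries. Of the receptors Met, Fgfr1 and Igf1r were on the higher side and none on the lower. DESeq2 called 1113 genes higher (8.48%) and 487 lower (3.71%) of 13128, among them Met and Fgfr1. Met, Fgfr1, Igf1r and Ddr1 were above both wt libraries in FPKM in every null library, which was true of 35.9% of all genes tested, and no receptor was below both in all (7.22% of all genes). The log2 fold change was above 0 for 8 of the 9 receptors (59.3% of all genes), and their median was 1.15, beside 0.29 over all genes tested. The scaling matters for such a comparison, since the median over 11796 genes tested in each fit was 0.21 with TMM, 0.13 with DESeq2 and 0.61 with limma on log2(FPKM + 0.1). The biological coefficient of variation, the typical spread between libraries of a group relative to their mean, was 0.694.

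Transcript length moved with the comparison. Genes with transcripts of up to 1000 bases had a median log2 fold change of -0.54, and the median was higher in each longer class up to 1.61 for those over 7000 bases. Against the wt mean, the median difference in log2(FPKM + 0.1) went from -0.27 to 1.49 in null replicate 1, from -0.32 to 1.93 in null replicate 2 and from 0.15 to 1.48 in null replicate 3. In the wt libraries the same medians stayed between -0.13 and 0.13. The receptors are long, from 3672 bases for Ddr1 to 11978 bases for Igf1r. Among the 1315 genes of 5000 to 7000 bases, 30.6% had a log2 fold change at or above that of Met, and in the class of Fgfr1 (4000 to 5000 bases) the share was 26.3%. For Igf1r it was 51.2% of the genes over 7000 bases, so its value was that of a typical gene of its length. The share of genes above both wt libraries in every null library was 9.32%, 17.9%, 29.2%, 41.5%, 52.5%, 62.7% and 71.3% from the shortest to the longest of 7 classes, and the 4 receptors with that order lay in the upper 4 classes. Axl lay at the other end, with 95.0% of genes of its length class at or above it. With transcript length as an offset in the edgeR fit, the log2 fold change of Met was 0.61, of Fgfr1 0.80 and of Igf1r -0.30, with Axl at -1.67 (SE 0.38, adjusted p = 0.331) in edgeR. The receptors' median became -0.02, beside 0.13 over all genes. The cause of this trend was not tested.

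**Figure D2:**
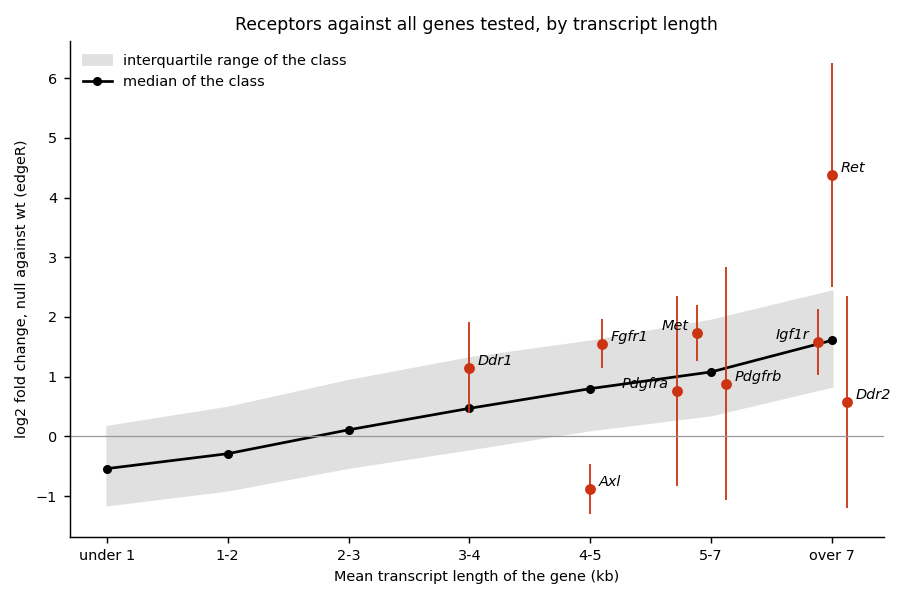
edgeR log2 fold change (null against wt) by mean transcript length of the gene in kilobases; the black line is the median and the grey band the interquartile range of all genes tested in a class, and red points with bars are receptors ± SE, shifted sideways only to separate them. The median climbs from -0.54 to 1.61 with length, Igf1r sits on it, Met and Fgfr1 above it and Axl below it.

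The 10 receptors together summed to 293 and 216 FPKM in the wt and 284, 369 and 266 FPKM in the null libraries, so the totals overlapped. Without Axl the sums were 37.9 and 38.9 FPKM in the wt and 143, 119 and 129 FPKM in the null libraries (38.4 ± 0.721 against 130 ± 11.8, SD, n = 2 and n = 3). Leaving out Axl, the only receptor tested with a log2 fold change below 0, widened this gap by construction, so the gap carries no test. FPKM also ran higher in the null libraries over all genes, with a median log2 fold change of 0.61 in limma on log2(FPKM + 0.1). Axl made up 87.1% and 82.0% of the total in the wt and 49.7%, 67.7% and 51.6% in the null libraries. In null replicate 1 Ddr1 supplied 33.9% of the total. Fgfr1 supplied 11.8%, 10.0% and 12.6% in null replicates 1, 2 and 3.

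**Figure D3:**
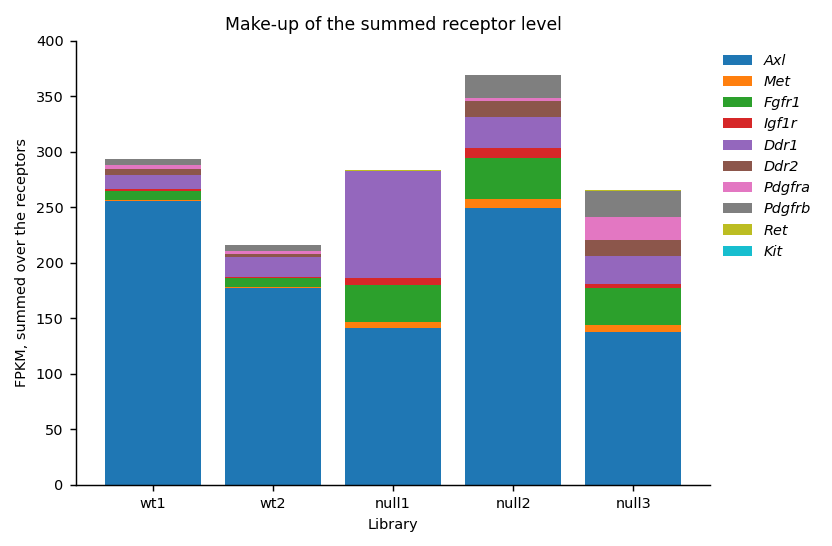
FPKM of the 10 receptors stacked for each library (wt1, wt2, null1 to null3; axis from 0). Axl fills more than 80% of the wt bars, and the remainder is larger in the null bars. It is mainly Ddr1, then Fgfr1, in null replicate 1. In null replicates 2 and 3 it is mainly Fgfr1, Ddr1, Pdgfrb and Ddr2, with Pdgfra in null replicate 3.

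Among 58 mouse receptor tyrosine kinases, between 40 and 47 were listed per library, and Axl ranked 1 in FPKM in all 5. The 10 receptors held 50.6% and 51.4% of the summed FPKM of the family in the wt and 39.0%, 56.9% and 51.2% in the null libraries. Epha2, an ephrin receptor, was at 149 and 56.0 FPKM in the wt and 105, 107 and 31.9 FPKM in the null libraries. It ranked 2 in mean over libraries. Fgfr1 ranked 8 and 7 in the wt and 6, 4 and 3 in the null libraries, while Met ranked 19 in each wt library and 19, 13 and 14 in null replicates 1, 2 and 3. Of the 36 family members in the fit, edgeR called 0, 10 were higher and 0 lower at an unadjusted p under 0.05 (12.4% and 6.07% of all genes). The family's median log2 fold change was 1.29, beside 0.29 over all genes, and 0.55 with the length offset. DESeq2 called 7 higher (8.48% of all genes), of which Epha4, Lmtk2, Aatk, Ltk and Insr were not among the 10. Flt4, the receptor of lymphatic growth factors, was at 18.4 FPKM in null replicate 1 and at most 1.13 FPKM elsewhere, and Ltk at 5.64 and at most 0.92 FPKM. Epha1 was likewise highest in null replicate 1, at 13.4 FPKM against at most 2.04 FPKM elsewhere. Epha4, Lmtk2 and Aatk were above both wt libraries in every null library, with log2 fold changes of 2.60, 2.18 and 3.31. Erbb4, Insrr, Epha6, Epha10, Ephb1 and Ros1 were at 0 in all 5 libraries.

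The ligands did not follow their receptors in a simple order. Of 20 ligand genes 16 were in the fit, edgeR called 0, and 5 were higher and 1 lower at an unadjusted p under 0.05, against 12.4% and 6.07% of all genes. Their median log2 fold change was 0.89, beside 0.29 over all genes, and was 0.46 without null replicate 3, 1.42 without wt replicate 1 and 0.15 with the replicate block. Pdgfa, a ligand of Pdgfra, was at 3.42 and 3.09 FPKM in the wt and 25.3, 24.7 and 23.3 FPKM in the null libraries. It was within 1.11-fold between the wt libraries and close to even among the null libraries (log2 fold change 2.33, SE 0.52, edgeR adjusted p = 0.18, DESeq2 adjusted p = 0.00016), including null replicate 1, in which Pdgfra was near 0. Gas6, the ligand of Axl, had 0 and 3 reads in the wt and 715, 13 and 293 reads in the null libraries. The lowest Axl in FPKM was thus in null replicates 1 and 3, where Gas6 was highest. Igf1 was at 2.28 and 1.36 FPKM in the wt and at 0.01, 0.14 and 0.19 FPKM in the null libraries (log2 fold change -4.23, SE 1.00, edgeR adjusted p = 0.186, DESeq2 adjusted p = 0.000558). Igf2, the other ligand of Igf1r, had no read in the wt and 135, 3 and 989 reads in the null libraries. The null libraries were thus low in Igf1, and Igf2 varied widely among them.

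Kitl, the ligand of Kit, was at 0.44 and 0.60 FPKM in the wt and at 0.37, 15.9 and 12.3 FPKM in the null libraries, of which null replicate 1 lay below the wt. Gdnf, a ligand of Ret through its co-receptor, was at 0.49 and 0.42 FPKM in the wt and 1.23, 0.46 and 7.57 FPKM in the null libraries. Artn, of the same family, was at 15.7 and 15.1 FPKM in the wt and 2.66, 14.6 and 1.10 FPKM in the null libraries. Null replicate 2 thus resembled the wt libraries in Gdnf and Artn as it did in Ret, but not in Nrtn of that family. Nrtn was at 7.03 and 4.55 FPKM in the wt and 11.8, 1.66 and 6.06 FPKM in the null libraries. Pspn had at most 15 reads in any library. Fgf1 was highest in null replicate 2, at 4.42 FPKM, and at most 1.02 FPKM in the others. Hgf, the ligand of Met, reached at most 0.49 FPKM in any library.

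**Figure D4:**
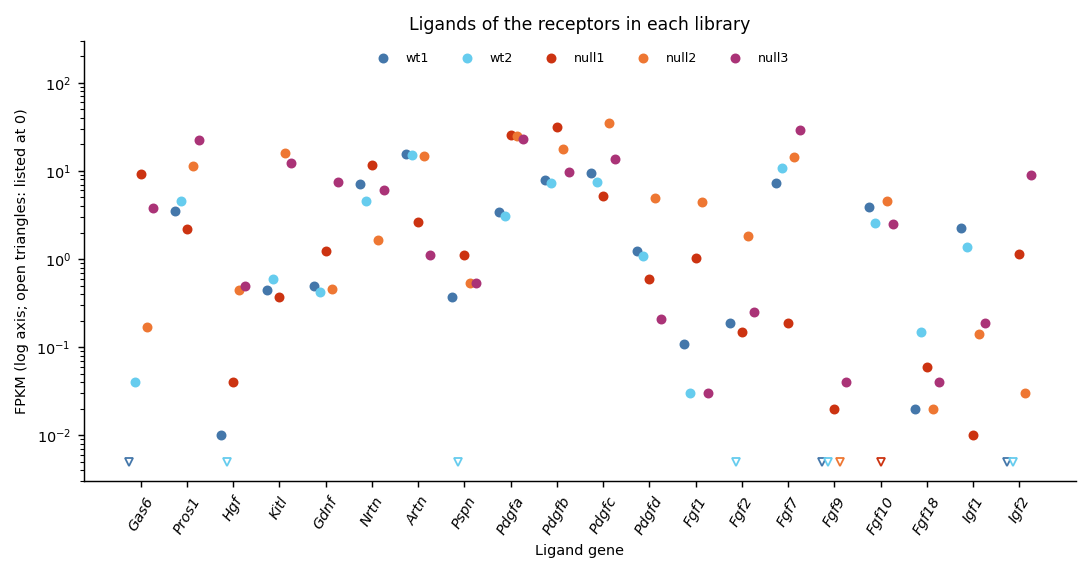
FPKM of the 20 ligand genes in each library on a log axis; colours mark the 5 libraries and open triangles a gene listed at 0. Pdgfa is evenly higher and Igf1 lower in all 3 null libraries, while Gas6, Kitl, Gdnf, Artn and Igf2 scatter among the null libraries.

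Co-receptors and paralogs gave no call in edgeR. Of 16 genes 12 were in the fit, 11 had a log2 fold change above 0 (59.3% of all genes), and 6 were above both wt libraries in every null library (35.9% of all genes), while the groups overlapped for the other 6. Their median log2 fold change was 1.57, beside 0.29 over all genes, and 0.98 with the length offset. With limma it was 1.67, 0.72 and 1.88 for 0.1, 1 and 0.01 added, and with the replicate block 1.02. Insr, the insulin receptor and closest relative of Igf1r, was at 0.33 and 0.30 FPKM in the wt and 2.28, 1.40 and 2.77 FPKM in the null libraries. Igf2r, which takes up and clears Igf2, was at 2.48 and 1.33 FPKM in the wt and 11.1, 14.0 and 6.07 FPKM in the null libraries. DESeq2 called Insr and Igf2r higher (log2 fold change 2.10, adjusted p = 0.00714, and 1.81, adjusted p = 0.03). Fgfrl1, an FGF receptor without a kinase domain, was at 5.20 and 9.19 FPKM in the wt and 35.7, 13.6 and 28.8 FPKM in the null libraries. Fgfr2 reached 2.20 FPKM in null replicate 3 and was at most 0.53 FPKM elsewhere. Tyro3, a paralog of Axl, was at 2.86 and 3.18 FPKM in the wt and 14.6, 4.98 and 6.33 FPKM in the null libraries. Gfra1, the co-receptor through which Gdnf reaches Ret, had 658 reads in null replicate 2 and at most 11 in the others. Ret was near 0 in null replicate 2, but also in the wt libraries, where Gfra1 had 11 and 0 reads. Gfra3, the co-receptor of Artn, was at 0 in all libraries.

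The adaptors and signal relays below the receptors were listed in every library. All 23 were in the fit, edgeR called 0, 8 were higher and 0 lower at an unadjusted p under 0.05 (12.4% and 6.07% of all genes), and 16 were above both wt libraries in every null library (35.9% of all genes). The median log2 fold change was 0.77, beside 0.29 over all genes, and 0.03 with the length offset. With limma it was 1.29, 1.10 and 1.32 for 0.1, 1 and 0.01 added, beside 0.61, 0.50 and 0.62 over all genes tested. Sos1, the exchange factor that loads Ras, was at 0.18 and 0.16 FPKM in the wt and 2.41, 1.68 and 4.13 FPKM in the null libraries, and its paralog Sos2 at 0.32 and 0.26 against 1.87, 2.03 and 0.97 FPKM. Irs1, the docking protein of Igf1r and Insr, was at 0.18 and 0.15 FPKM in the wt and 1.69, 1.65 and 1.23 FPKM in the null libraries. DESeq2 called Sos1 (log2 fold change 3.32, adjusted p = 2.36e-05), Irs1 (2.58, adjusted p = 0.00028), Irs2 (1.68, adjusted p = 0.0393) and Frs2 (1.68, adjusted p = 0.0326) higher. Gab1, the docking protein of Met, and the PI3K subunits Pik3r1 and Pik3ca were also above both wt libraries in every null library, with edgeR log2 fold changes of 1.3, 1.72 and 1.36. The log2 fold change was below 0 for 4 of the 23, Akt2 (-1.05), Grb2 (-0.57), Shc1 (-0.29) and Src (-0.03). Akt1, the most abundant of the list, was at 0.04.

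Genes that process ligands or end receptor signals were split between even and uneven ones. All 14 were in the fit, edgeR called 0, and 4 were higher and 0 lower at an unadjusted p under 0.05 (12.4% and 6.07% of all genes). Their median log2 fold change of 1.78, beside 0.29 over all genes, was 0.98 without null replicate 1 and 1.12 with the length offset. Ptprj, a phosphatase that acts on Met and Pdgfrb, was at 0.23 and 0.07 FPKM in the wt and 4.10, 4.62 and 2.02 FPKM in the null libraries (DESeq2 log2 fold change 4.09, adjusted p = 4.24e-06). Plau, which can activate Hgf, was at 3.44 and 3.75 FPKM in the wt and 80.1, 10.6 and 187 FPKM in the null libraries. The ubiquitin ligase Cbl and the protease Furin were above both wt libraries in every null library too, with edgeR log2 fold changes of 1.73 and 1.82. St14, a protease that activates Hgf at the cell surface, was at 2.08 and 2.55 FPKM in the wt and 96.1, 0.02 and 12.6 FPKM in the null libraries. Its inhibitor Spint1 was at 1.2 and 1.22 FPKM in the wt and 119, 0.36 and 9.71 FPKM in the null libraries, and Spint2 at 27.8 and 27.2 FPKM against 685, 25.6 and 127 FPKM. Hgfac, another activator of Hgf, had 0 reads in the wt and 1360, 0 and 64 reads in the null libraries. St14, Spint1, Spint2 and Hgfac were thus highest in null replicate 1 and lowest of the null libraries in null replicate 2, although Met itself was within 1.45-fold in those libraries.

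Of the 7 IGF-binding proteins 5 were in the fit and edgeR called 0. At an unadjusted p under 0.05 in edgeR, 1 was higher and 0 lower (12.4% and 6.07% of all genes). None of the 5 was above both wt libraries in every null library (35.9% of all genes). Their median log2 fold change of 1.25, beside 0.29 over all genes, was -0.01 without null replicate 3 and -0.26 with the replicate number as a block. Igfbp2 was at 0.17 and 0 FPKM in the wt and 0.13, 5.52 and 37.7 FPKM in the null libraries, and Igfbp6 was at 283 FPKM in null replicate 3 and at most 17.1 FPKM elsewhere. Of the 9 fibrillar collagen genes, ligands of Ddr1 and Ddr2, 8 were in the fit and edgeR called 0. Their median log2 fold change of 0.15 had no stable sign, being -1.82 without null replicate 3, -3.23 with the replicate block, -0.87 with the length offset and -1.73 with limma on log2(FPKM + 0.1). The sum of the 9 was 358 and 320 FPKM in the wt and 9.78, 203 and 1228 FPKM in the null libraries. Null replicate 1, the library with the most Ddr1 and almost no Ddr2, was thus the poorest in collagen RNA, Col1a1 being at 1.11 FPKM there against 161 and 118 FPKM in the wt. Col5a3 was below both wt libraries in every null library, at 2.49 and 4.45 FPKM in the wt and 0.03, 0.64 and 1.74 FPKM in the null libraries. Col11a1 was at most 0.26 FPKM in the wt and null replicate 1 and at 2.75 and 1.82 FPKM in null replicates 2 and 3.

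Markers of cell types differed among the null libraries as well. By list medians, null replicate 1 stood farthest from the wt in epithelial and fibroblast markers, and null replicate 3 in pericyte and smooth muscle markers. The 11 epithelial markers summed to 1111 and 1787 FPKM in the wt and to 14184, 706 and 1468 FPKM in null replicates 1, 2 and 3. Krt8 led the sum in both wt libraries, at 634 and 1104 FPKM, and Krt7 in null replicates 1 and 3, at 5131 and 461 FPKM, while Krt18 led in null replicate 2 at 346 FPKM. Epcam was at 5.04 and 4.61 FPKM in the wt and 152, 0 and 59.6 FPKM in the null libraries, and Cdh1 at 1.94 and 1.62 against 136, 0 and 20.9 FPKM. Null replicate 1 was thus the most epithelial in markers and null replicate 2 lacked Epcam and Cdh1. At 1 FPKM or more stood 9 of the 11 in either wt library and 11, 4 and 11 in the null libraries. The 12 fibroblast markers, Vim being the most abundant, summed to 2118 and 4840 FPKM in the wt and 117, 4818 and 3264 FPKM in the null libraries, with 7 of them at 1 FPKM or more in either wt library and 3, 7 and 10 in the null libraries. Twist1 was at 32.5 and 36.1 FPKM in the wt and 0.02, 30.4 and 65.0 FPKM in the null libraries, and Col3a1 at 70.3 and 77.6 against 0, 6.98 and 189 FPKM. Dcn, Postn and Thy1 were high in null replicate 3 alone, at 84.7, 102 and 88.5 FPKM against at most 0.24 FPKM elsewhere. The 9 pericyte and smooth muscle markers summed to 85.7 and 74.3 FPKM in the wt and 8.0, 195 and 1090 FPKM in the null libraries, mostly through Acta2 at 81.9 and 71.3 FPKM in the wt and 0, 192 and 942 FPKM in the null libraries. Other members of that list had other orders, such as Notch3 at 1.27 and 0.87 FPKM in the wt and 6.54, 1.06 and 5.82 FPKM in the null libraries, and Des, which was lowest in null replicate 2 at 0.09 FPKM. Ptprc, the defining marker of leukocytes, was at 0 in all 5 libraries, as were Cd3e and Adgre1, while Cd68, the most abundant of the 7 leukocyte markers, was at 6.09 and 14.2 FPKM in the wt and 59.8, 1.00 and 39.9 FPKM in the null libraries. Cd68 also occurs in other cells with many lysosomes, and the 7 endothelial markers summed to at most 0.75 FPKM. In null replicate 1 Ddr2, Pdgfra and Pdgfrb were at or near 0 where fibroblast markers were lowest, and Ddr1 was highest where epithelial markers were highest. Between null replicates 2 and 3, Pdgfra was at 2.86 and 21.5 FPKM beside list medians of -0.17 and 1.56 for the fibroblast markers (difference from the wt mean in log2(FPKM + 0.1)), while Ddr1 was at 28.06 and 25.39 FPKM beside medians of -2.59 and 2.05 for the epithelial markers. Ret was near 0 in the null library without Epcam, but also in both wt libraries, which had Epcam. The part of cell type make-up in these receptor values was not tested, and fewer cells of a type cannot be told apart from less RNA per cell in bulk RNA.

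**Figure D5:**
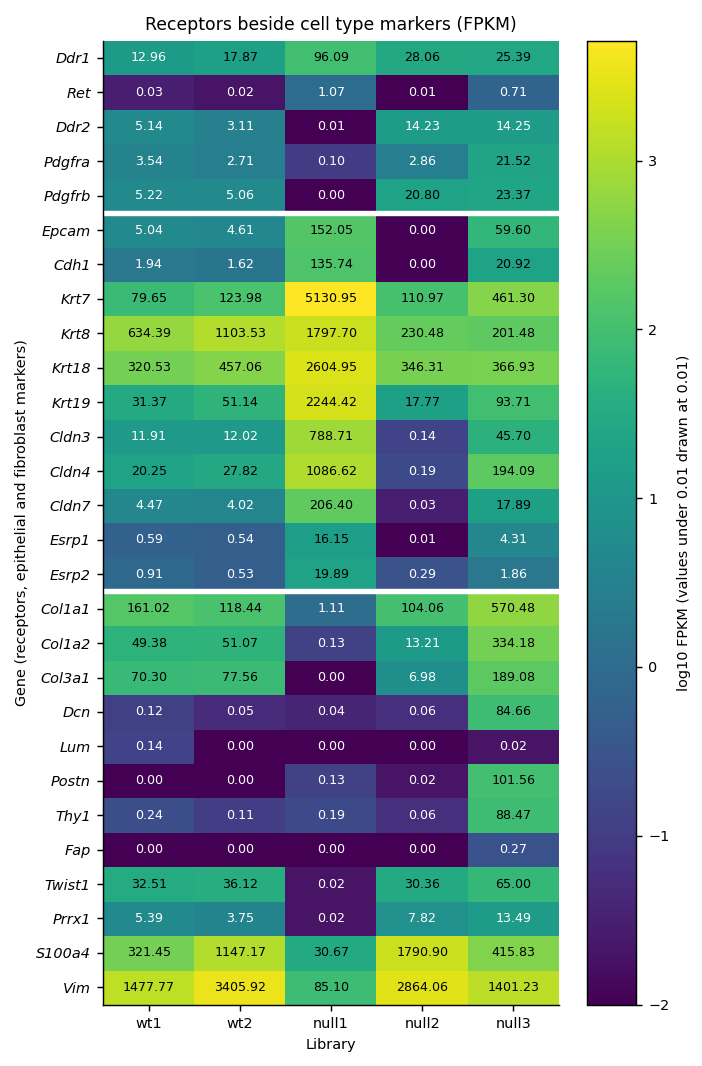
FPKM (numbers) and log10 FPKM (colours) of the 5 receptors that differed most among the null libraries, of the 11 epithelial and of the 12 fibroblast markers in each library. In null replicate 1 the epithelial markers are high, and Ddr2, Pdgfra, Pdgfrb and most fibroblast markers are at or near 0.

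The receptors were also set beside the genes whose levels varied most like theirs, measured as the root mean square difference of centred log2(FPKM + 0.1) over the 5 libraries among 10826 genes. As a description, Pdgfrb was closest to Gm7334 (0.229), Fstl1 (0.231) and Fbn1 (0.242), of which Fstl1 and Fbn1 encode secreted and matrix proteins. Ddr2 was closest to Fbn1 (0.224), Rhoj (0.353) and Pdgfrb itself (0.353). Pdgfra had no near neighbour, its closest being Fam131b at 0.394, Gnao1 at 0.442 and Ggt7 at 0.455. Met was closest to Vcpip1 (0.054), Srgap2 (0.075) and Zbed4 (0.098), and Fgfr1 to Patl1 (0.068), Ddx42 (0.089) and Irf2 (0.102). Igf1r was closest to Clasp1 (0.074), Sos2 (0.128) and Lrrc8d (0.133), Ddr1 to Osbpl5 (0.109), H2bc21 (0.116) and Tnfsf12 (0.127), and Axl to Slc35g2 (0.083), Prorp (0.092) and Dnajc11 (0.104). Met and Fgfr1 differed from each other by 0.163 and Pdgfrb and Ddr2 by 0.353, while Met and Pdgfrb differed by 3.02. All these values share the same 5 libraries, so they carry no test.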

How the data were processed

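RNA from 5 thyroid tumor cell line libraries (2 BVE-Ctnnb1wt, 3 BVE-Ctnnb1null) was sequenced from TruSeq libraries on a HiSeq 4000, grouped by the sample labels. The aligner, counting program, build and annotation are not given in the sources used here. For each RefSeq transcript the authors deposited an expected count, which need not be whole, an FPKM value and the transcript length, the lowest FPKM listed being 0.01. Columns of other samples numbered 0.

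Expected counts and FPKM were summed per NCBI gene and counts rounded. Of 17923 genes, 17866 matched a symbol in RefSeq GRCm38.p6. The main test was edgeR 4.0.16 in R 4.3.3 (TMM, filterByExpr by group, glmQLFit and glmQLFTest, 13240 genes, Benjamini-Hochberg, threshold 0.05). The SE is the log2 fold change divided by the square root of F. FPKM of single genes was compared with two-sided exact permutation tests. The 14 alternatives were DESeq2 1.42.0, upper-quartile normalization, no filter, limma 3.58.1 on log2(FPKM + 0.1, 1 or 0.01) for genes at 0.5 FPKM or more in 2 libraries, 10 counts or more in all libraries, leaving out each library, the replicate number as a block, and a transcript length offset added after seeing the data. The fits were tested on simulated counts with 200 changed genes. At 29360002 to 30713079 counts per library, 3 counts (the limit for a count of 0) are 0.098 to 0.102 CPM, counting error only.

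The receptors and gene lists were chosen with earlier results of these data known. All 10 receptors are named. Of each other list, genes are named with a mean of at least 1 FPKM in the higher group and either an absolute log2 fold change of at least 2 or groups that do not overlap in FPKM, at most 8 per list. Marker genes are named as the most abundant and those at 0, and as like patterns the 3 nearest genes. Hgf, Nrtn, Pspn, Akt1, Akt2, Grb2, Shc1, Src, Tg, Col3a1, Epha2, Gfra3, Gfra1 in counts, Twist1, Nkx2-1, Pax8, Hhex, Slc5a5, Calca, Chga, Syp, Krt8, Krt18, Notch3, Des, Epcam, Cdh1, Col1a1, Dcn, Postn and Thy1 were named after their values were seen where the rule did not name them. Sequences are from GENCODE M21 (GRCm38, matched to RefSeq transcripts by its table) and the RefSeq promoter table. No protein sequence was used.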

Additional observations from a re-analysis of the deposited data

How the results depend on the processing

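With DESeq2, 1113 genes were higher and 487 lower in the null libraries, and Met (1.64) and Fgfr1 (1.46, both log2 fold changes) passed its threshold, so that 2 receptors were called. Beside 8.48% of all genes called higher and 3.71% lower, DESeq2 called 4 of 16 ligands higher and 1 lower, and 2 of 12 co-receptors or paralogs, 4 of 23 adaptors, 4 of 14 turnover and processing genes, 1 of 5 IGF-binding proteins and 7 of 36 receptor tyrosine kinases higher, by the numbers in the edgeR fit. limma called 1 gene higher with each pseudocount and 5, 7 and 3 genes lower on log2(FPKM + 0.1), log2(FPKM + 1) and log2(FPKM + 0.01). edgeR called 4 genes lower with no filter and 1 lower with at least 10 counts in every library, a filter under which Pdgfrb, Ddr2 and Ret could not be tested. The receptors' median log2 fold change was 1.38 under that filter, and with limma it was 1.42, 0.58 and 1.43 for 0.1, 1 and 0.01 added. It was between 0.81 and 1.42 when a library was left out, and -0.02 with the length offset.

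The signs of Pdgfra, Pdgfrb and Ddr2 turned with limma, to -0.45, -0.52 and -0.54 with 0.1 added and to -0.71, -1.60 and -1.33 with 0.01 added, but not with 1 added (0.16, 0.40 and 0.30). They turned with the length offset to -0.23, -0.02 and -0.81, and Igf1r turned to -0.30. Pdgfra was between -1.71 (without null replicate 3) and 1.28 when a library was left out. Leaving out null replicate 1 lowered Ddr1 to 0.11. None of these reversed values passed a threshold, and the cause was not tested. Met kept its sign in all 14 alternatives (0.61 to 2.30), as did Fgfr1 (0.80 to 2.13) and Axl (-1.67 to -0.33). With the replicate number as a block, which leaves null replicate 3 without a partner, Pdgfra was at -3.05, Pdgfrb at -3.54 and Ddr2 at -3.42. The labels tie no libraries by number. Deviations of same-numbered libraries correlated at -0.107 in both pairs, which are not independent because the wt deviations mirror each other, so a pairing could not be established. The block called 0 receptors. Depth limited the values of Kit and Ret, which had under 10 reads in both wt libraries.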
